A study of Homo sapiens with 4 samples.

Results

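The integrated stress response regulators examined here are 10 genes: ATF4, DDIT3, CEBPB, TRIB3, CHAC1, DDIT4, PPP1R15A, SESN2, STC2 and VLDLR. They are a named set taken by symbol, with no threshold on their values but with earlier results of these data known, and all 10 were found among the 19381 genes of the deposited tables. RNA was sequenced from SK-LMS-1, an established human cell line that the labels describe as uterine leiomyosarcoma, a cancer of smooth muscle. One group of 2 libraries came from untreated cells, for which no vehicle is named. The other group of 2 libraries came from cells given 50 µM 2-D08 for 48 h. 2-D08 is a synthetic flavone known to block conjugation of the protein modifier SUMO. All cells were grown in the same serum-containing medium.

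In the integrated stress response, kinases that sense amino acid shortage, misfolded protein, heme shortage or double-stranded RNA phosphorylate the translation factor eIF2. General protein synthesis then falls, while a few mRNAs, ATF4 above all, are translated better. ATF4 is a transcription factor that switches on genes for amino acid supply, for feedback and, under lasting stress, for cell death. Much of ATF4 and PPP1R15A control is translational, so mRNA levels describe only part of the pathway.

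The regulators moved in both directions. PPP1R15A more than doubled in treated cells and DDIT3 rose more modestly, whereas DDIT4, VLDLR and ATF4 itself fell. By edgeR's quasi-likelihood test, 5 of the 10 passed the threshold (adjusted p under 0.05 over all genes tested), 2 higher and 3 lower. Over all 12906 genes tested, 33.9% passed, 17.1% higher and 16.9% lower. The median log2 fold change of the 10 genes was -0.26, against 0.00 over all genes tested. CEBPB, TRIB3, CHAC1, SESN2 and STC2 did not pass. All 10 genes passed the filter on low counts in this fit. In 8 of the 10 the untreated and treated libraries did not overlap, as in 67.5% of all genes tested.

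Library totals ran from 14796702 to 31300635 counts. In untreated replicate 1 and treated replicate 2, 87.9% and 87.1% of gene counts of at least 20 were even numbers, against 49.8% and 50.4% in the other pair of libraries. What made the counts even was not tested, and the kinds of library are also compared separately below. CPM are counts scaled to a common library size after TMM normalisation. For genes with a mean under 0.1 CPM alone, library totals without TMM were used. Those genes together took 56.6 and 57.6 CPM of the untreated libraries and 172 and 157 CPM of the treated ones. The part of this rise in the results was not tested. Of smooth muscle markers, DES had 0 counts in all libraries, MYOCD had 0 in both untreated libraries and 2 in each treated one, and MYH11 had 10 to 24, so these defining markers were at or near 0. In bulk RNA, fewer cells of a type and less RNA per cell cannot be told apart. The 12 smooth muscle markers summed to 1169 and 1186 CPM in untreated and 800 and 851 CPM in treated libraries. Most of that sum came from CALD1, MYLK and SMTN, of which CALD1 (log2 fold change -0.45) and MYLK (-1.37) fell and SMTN rose (0.58). MYL9 (-0.88) and TAGLN (-0.85) also fell. Of 10 tested smooth muscle markers 1 was higher and 5 lower, against 17.1% and 16.9% of all genes tested. The same shares apply to the counts of other markers below. Markers of other cell types also moved. The 7 epithelial markers summed to 343 and 304 CPM in untreated and 277 and 231 CPM in treated libraries. Most of that sum came from KRT18 (group means 206 and 196 CPM), which did not pass (-0.07, edgeR adjusted p = 0.627). KRT7 (-1.29), KRT19 (-1.49) and KRT8 (-0.47) were lower. Of 6 tested, 0 were higher (0 also at an unadjusted p under 0.05 in edgeR). CDH1 had 5 and 12 counts in treated replicates 1 and 2 but 0 without treatment. EPCAM (8 to 24 counts) and CDH1 were thus at or near 0. The 7 immune markers summed to 62.6 and 67.4 against 98.8 and 100.2 CPM, nearly all from CD68 (0.57), with LCP1 higher (2.33) and PTPRC and CD3E under 1 CPM. CD14, at 3 to 18 counts, went the other way without passing (-0.63). The 6 endothelial markers summed to 1.35 and 1.57 CPM in untreated and 2.06 and 2.07 CPM in treated libraries. Of 2 tested, PECAM1 was higher (1.89), on 14 and 2 counts in untreated and 18 and 40 in treated libraries. CDH5, at 5 to 24 counts, went the other way without passing (-1.10). Whether any of these marker changes bears on the stress regulators was not tested.

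Sequence just before the start of transcription is shown for the regulators with the largest rise and the 2 largest falls. The stretches cover the 150 bases before the start of each gene in RefSeq (GRCh38.p14), read 5′ to 3′ on the gene's strand. They lie at chr19:48872271-48872420 (plus strand) for PPP1R15A, chr10:72273774-72273923 (plus strand) for DDIT4 and chr9:2621637-2621786 (plus strand) for VLDLR. Capitals mark the cyclic AMP response element TGACGTCA, a site bound by factors of the CREB and ATF family. Only the PPP1R15A stretch holds it. Its last 29 bases lie inside the first exon of GENCODE.
PPP1R15A: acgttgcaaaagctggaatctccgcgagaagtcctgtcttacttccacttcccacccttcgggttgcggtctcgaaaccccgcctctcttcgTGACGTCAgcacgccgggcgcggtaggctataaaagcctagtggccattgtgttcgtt
DDIT4: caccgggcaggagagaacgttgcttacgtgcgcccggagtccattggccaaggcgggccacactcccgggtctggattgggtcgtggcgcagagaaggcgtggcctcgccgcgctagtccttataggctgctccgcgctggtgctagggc
VLDLR: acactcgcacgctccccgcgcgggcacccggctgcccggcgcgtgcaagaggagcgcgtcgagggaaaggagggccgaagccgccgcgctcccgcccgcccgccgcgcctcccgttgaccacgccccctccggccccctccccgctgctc

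The stretch of VLDLR was 80.0% G or C, that of DDIT4 67.3% and that of PPP1R15A 56.7%. Windows of 300 bases around the start were available for all 10 genes (15 windows, since some genes have several starts) and were searched on both strands. The cyclic AMP response element was found in 1 of the 10 genes, PPP1R15A, where it began 58 bases before the start, and in 1.85% of all 35116 windows. The composite element TTNCATCA, the kind of site at which ATF4 pairs with a C/EBP factor, was found in CHAC1 alone among the 10 and in 3.62% of all windows. It is shown in capitals in the 30 bases at chr15:40953251-40953280 (plus strand), beginning 209 bases before the RefSeq start and inside an exon of another CHAC1 transcript in GENCODE.
CHAC1: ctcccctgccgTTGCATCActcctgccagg
The endoplasmic reticulum stress element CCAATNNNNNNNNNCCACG, a site of the factor ATF6, was in none of the windows of the 10 genes and in 0.0769% of all windows. A match of letters is a description and shows no binding, and ATF4 sites further away were not searched.

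Compared per transcript length, in TPM, the deposited length-scaled transcript abundance, the 10 genes spanned a wide range of levels. In untreated cells ATF4 was highest, at 352 and 339 TPM in replicates 1 and 2. STC2 followed at 146 and 141 TPM and PPP1R15A at 78.3 and 71.8 TPM. DDIT3 (42.2 and 37.2 TPM), DDIT4 (34.1 and 34.5), CEBPB (28.1 and 28.5) and VLDLR (24.98 and 26.8) lay in the middle. TRIB3 (19.3 and 16.5 TPM), SESN2 (17.1 and 14.82) and CHAC1 (10.8 and 9.07) were lowest. Among neighbours in this order, TRIB3 and SESN2 alone had overlapping libraries, though each group holds only 2.

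In treated cells the order changed. ATF4 was still highest, at 221 and 200 TPM, but PPP1R15A (154 and 160 TPM) had come level with STC2 (162 and 142), and their libraries overlapped. DDIT4 dropped from the fifth place to the ninth, at 13.0 and 9.75 TPM. The libraries of VLDLR (15.3 and 14.1), TRIB3 (16.4 and 9.87), SESN2 (14.7 and 11.4) and DDIT4 overlapped from each neighbour to the next. DDIT3 (54.7 and 48.9 TPM) and CEBPB (37.4 and 26.0) lay above them and CHAC1 (9.65 and 6.77) lowest.

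**Figure D1:**
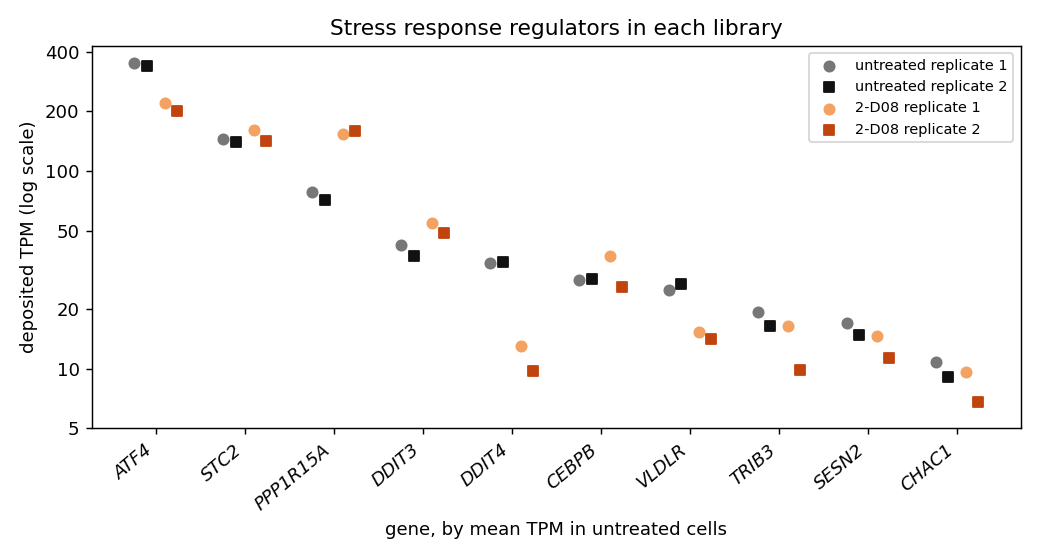
Deposited TPM (vertical log axis) of the 10 regulators (horizontal axis, ordered by untreated mean) in each of the 4 libraries, 1 point per library. PPP1R15A rises from 71.8 to 78.3 TPM in untreated to 154 to 160 TPM in treated libraries, and DDIT4 falls from 34.1 to 34.5 TPM to 9.75 to 13.0 TPM.

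Among the transcription factors, ATF4 (chromosome 22, 39519695 to 39522685, plus strand, GRCh38), the central activator of the response, lay at 320.7 and 321 CPM in untreated cells and at 209 and 199 CPM in treated ones. Both treated libraries lay below both untreated ones, and the untreated pair was nearly identical. The mean went from 321 ± 0.403 to 204 ± 7.40 CPM (mean ± SD of 2 libraries), 1.57-fold lower, a log2 fold change of -0.65 ± 0.09 (± SE; adjusted p in edgeR = 9.67e-05). Of all genes tested, 8.57% had a lower log2 fold change. ATF4 has 4 pseudogene copies in GENCODE release 29 (ATF4P1 to ATF4P4), none with a row in the count table, so how reads shared with them were counted is unknown.

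DDIT3 (chromosome 12, 57516588 to 57521737, minus strand) encodes CHOP, a factor induced downstream of ATF4 that promotes cell death under lasting stress. Its level was 21.9 and 20.4 CPM in untreated and 29.9 and 28.0 CPM in treated libraries. The groups did not overlap, and DDIT3 rose 1.36-fold (log2 fold change 0.45 ± 0.13 SE and an edgeR adjusted p of 0.0136). Leaving out either untreated library ended the call (adjusted p of 0.103 and 0.165 without replicates 1 and 2), as did limma on TPM with a pseudocount of 1 or 0.1 (0.091 and 0.0887), while the log2 value stayed between 0.38 and 0.50 over 13 alternatives. DDIT3 shares 355 of its exonic bases (27.2%) with MARS1, the cytosolic methionyl-tRNA synthetase gene on the opposite strand. Without a stated strand setting, reads there cannot be told apart. DDIT3 also shares 58 exonic bases (4.44%) with MBD6 on the opposite strand. A further 105 (8.03%) are shared with AC022506.1 on the same strand, which has no row in the count table, and there strand would not separate reads. MARS1 went the other way, from 312 ± 6.53 to 184 ± 16.6 CPM (mean ± SD of 2 libraries; log2 fold change -0.76, edgeR adjusted p = 5.05e-05).

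CEBPB (chromosome 20, 50190734 to 50192689, plus strand) encodes a C/EBP factor that can pair with ATF4 and CHOP. It lay at 34.4 and 36.1 CPM in untreated cells and at 47.4 and 34.6 CPM in treated ones. Treated replicate 1 stood above the untreated libraries and treated replicate 2 among them, so the groups overlapped. The log2 fold change was 0.21 ± 0.14 (± SE; adjusted p in edgeR = 0.269; 95% interval -0.09 to 0.51). Without treated replicate 1 it was -0.03 (adjusted p = 0.871), and without treated replicate 2 it was 0.43 (adjusted p = 0.00203). CEBPB shares 231 exonic bases (11.8%) with its antisense gene CEBPB-AS1.

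PPP1R15A, TRIB3 and CHAC1 act as feedback and effector genes. PPP1R15A (chromosome 19, 48872392 to 48876057, plus strand) encodes GADD34, which brings protein phosphatase 1 to eIF2 and so ends the response. It lay at 125 and 119 CPM in untreated libraries and at 255 and 278 CPM in treated ones. Both treated libraries were more than double either untreated one. The mean went from 122 ± 4.77 to 266 ± 16.0 CPM (mean ± SD of 2 libraries), 2.18-fold higher (log2 fold change 1.13 ± 0.09 SE and an edgeR adjusted p of 1.38e-06). It ranked 434 among 12906 genes from the largest rise down. Within each library, the TPM of ATF4 was 4.50 and 4.73 times that of PPP1R15A in untreated cells and 1.43 and 1.25 times in treated ones. That ratio does not depend on scaling between libraries. PPP1R15B, the constitutive relative of PPP1R15A, stood at 76.9 and 81.8 CPM (group means, log2 fold change 0.09, edgeR adjusted p = 0.499).

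TRIB3 (chromosome 20, 362835 to 397559, plus strand) encodes a pseudokinase that ATF4 and CHOP induce and that restrains ATF4 in turn. Its values were 30.5 and 26.8 CPM in untreated cells and 26.2 and 17.1 CPM in treated ones. Treated replicate 1 lay just under untreated replicate 2, whereas treated replicate 2 lay far below. The log2 fold change of -0.43 ± 0.17 (± SE; adjusted p in edgeR = 0.0667; 95% interval -0.80 to -0.06) did not pass. It passed without treated replicate 1 (-0.76, adjusted p = 3.68e-07) and shrank to -0.14 without treated replicate 2 (adjusted p = 0.451). Within libraries the TPM of DDIT3 was 2.19 and 2.25 times that of TRIB3 in untreated cells and 3.33 and 4.95 times in treated ones.

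CHAC1 (chromosome 15, 40952962 to 40956519, plus strand) encodes an enzyme that breaks down glutathione. It had the lowest level of the 10, with 308 and 151 counts in untreated and 138 and 224 counts in treated libraries, or 10.4 and 9.14 against 9.17 and 7.26 CPM. Treated replicate 1 lay between the untreated libraries. The log2 fold change was -0.27 ± 0.19 (± SE; adjusted p in edgeR = 0.285; 95% interval -0.68 to 0.13), and in none of the 13 alternatives did CHAC1 pass. It was -0.44 without treated replicate 1 (edgeR adjusted p = 0.0563), -0.11 without treated replicate 2 (0.727) and -0.17 without untreated replicate 1 (0.77).

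DDIT4 and SESN2 encode inhibitors of the growth kinase complex mTORC1. DDIT4 (REDD1; chromosome 10, 72273920 to 72276036, plus strand), which acts through the TSC complex, had the largest change of the 10. It lay at 39.6 and 41.3 CPM in untreated cells and at 15.6 and 12.3 CPM in treated ones, with a wide gap between the groups. The mean went from 40.5 ± 1.21 to 13.9 ± 2.38 CPM (mean ± SD of 2 libraries), 2.94-fold lower (log2 fold change -1.56 ± 0.14 SE and an edgeR adjusted p of 2.64e-06). Only 1.06% of genes tested had a lower log2 fold change. DDIT4 shares 847 exonic bases (41.2%) with its antisense gene DDIT4-AS1, so their reads cannot be told apart without strand. SESN2 (chromosome 1, 28259527 to 28282491, plus strand), a leucine sensor that restrains mTORC1 through the GATOR complexes, lay at 41.8 and 37.4 CPM in untreated and 37.1 and 30.1 CPM in treated libraries. Treated replicate 1 was barely below untreated replicate 2, and the log2 fold change of -0.25 ± 0.13 did not pass (± SE; adjusted p in edgeR = 0.141; 95% interval -0.52 to 0.02). It was -0.41 without treated replicate 1, where it passed (adjusted p = 0.00239), and -0.11 without treated replicate 2 (0.535). Within libraries, DDIT4 had 2 and 2.33 times the TPM of SESN2 in untreated cells and 0.885 and 0.858 times in treated ones.

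STC2 and VLDLR encode proteins outside the cell or at its surface. STC2 (chromosome 5, 173314713 to 173329503, minus strand), a secreted glycoprotein hormone induced by endoplasmic reticulum stress, lay at 279.7 and 278 CPM in untreated and 330 and 310 CPM in treated libraries. The groups did not overlap, but the log2 fold change of 0.20 ± 0.09 did not pass (± SE; adjusted p in edgeR = 0.0989; 95% interval 0.01 to 0.39). It was 0.08 with limma on either TPM scale (adjusted p = 0.604 on both), and STC2 passed without treated replicate 2 (0.24, adjusted p = 0.0101). VLDLR (chromosome 9, 2621834 to 2660053, plus strand), a receptor for triglyceride-rich lipoproteins and reelin, lay at 42.4 and 48.2 CPM in untreated cells and at 27.7 and 26.8 CPM in treated ones. Both treated libraries were well below both untreated ones. VLDLR fell 1.66-fold, from 45.3 ± 4.09 to 27.3 ± 0.636 CPM (mean ± SD of 2 libraries; log2 fold change -0.73 ± 0.12 SE and an edgeR adjusted p of 0.000347). It shares 738 exonic bases (7.9%) with VLDLR-AS1.

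**Figure D2:**
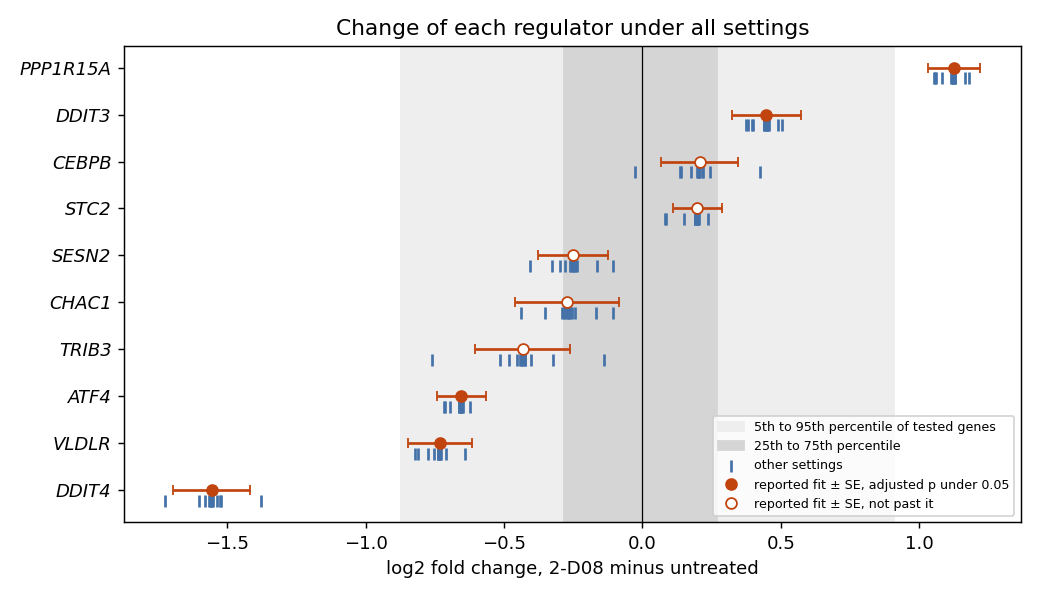
Log2 fold change (horizontal axis, treated minus untreated) of each regulator with its SE, filled where the adjusted p was under 0.05, above ticks for the 13 alternatives. Grey bands span the middle 50% and 90% of all tested genes; DDIT4 (-1.56) and PPP1R15A (1.13) lie outside the wider band of -0.87 to 0.91.

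The treated libraries differed from each other more than the untreated ones, and for most regulators in the same direction. In 9 of the 10 genes treated replicate 1 lay above treated replicate 2, PPP1R15A being the exception, while 50.3% of all genes did so. The median log2 difference between the treated libraries was 0.20 over the 10 genes, against 0.00 over all genes. It was largest for TRIB3 (0.62), CEBPB (0.46), DDIT4 (0.35), CHAC1 (0.34) and SESN2 (0.30). Between the untreated libraries 6 of the 10 were higher in replicate 1 (median 0.04), with TRIB3 (0.19), CHAC1 (0.18) and SESN2 (0.16) again among them and VLDLR the other way (-0.18). The typical difference of any gene, as a median of absolute values, was 0.11 in the untreated and 0.18 in the treated pair.

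**Figure D3:**
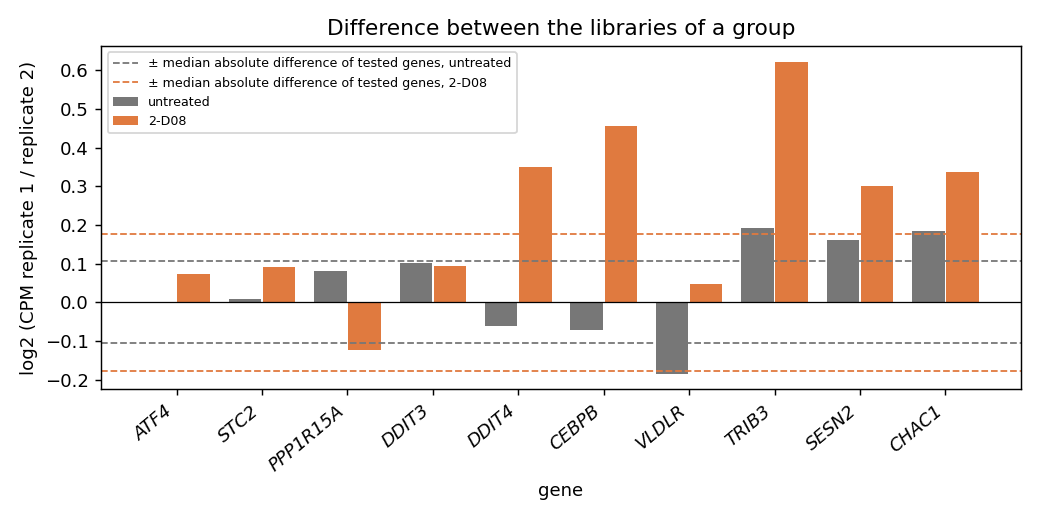
Log2 ratio of replicate 1 to replicate 2 (vertical axis, CPM) within the untreated and the treated group for each regulator (horizontal axis), with dashed lines at the median absolute difference of all tested genes (0.11 and 0.18). The treated bars of TRIB3 (0.62) and CEBPB (0.46) stand highest, and among treated bars only that of PPP1R15A (-0.12) is negative.

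The 5 called genes kept their direction in both kinds of library. Between the libraries with mostly even counts, treated replicate 2 over untreated replicate 1, the log2 ratio was 1.15 for PPP1R15A, 0.36 for DDIT3, -0.69 for ATF4, -0.66 for VLDLR and -1.69 for DDIT4. Between the remaining libraries it was 1.10, 0.55, -0.62, -0.80 and -1.41 for the same genes in that order. With 1 library on each side these ratios have no replicate check. The same 4 libraries made the calls, so the direction in each pair was nearly fixed beforehand. Of all 4376 genes called, 2201 were higher and 2175 lower in the even-count pair, and 2200 and 2176 in the other. For TRIB3, CHAC1 and SESN2 the ratios were -0.84, -0.52 and -0.47 in the even-count pair and -0.03, 0.00 and -0.01 in the other pair. CEBPB showed the reverse, 0.01 against 0.39.

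With the replicate number as a block, 8 of the 10 regulators passed, 3 higher and 5 lower, and in the same fit 48.3% of all genes did. TRIB3 (log2 fold change -0.43, edgeR adjusted p = 0.000348), SESN2 (-0.24, 0.0237) and STC2 (0.20, 0.0167) were added. The labels do not say that equal numbers mark paired cultures.

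Upstream of ATF4, the list of eIF2 kinases and eIF2 machinery had 2 higher and 5 lower of 21 tested members, with a median log2 fold change of 0.08. That is near the share of 33.9% over all genes. Of the 4 eIF2 kinases, EIF2AK1 (HRI, the heme and mitochondrial stress sensor) fell from 338 to 280 CPM (-0.27, edgeR adjusted p = 0.0285). That call was lost without either untreated library (adjusted p of 0.288 and 0.289) and on both TPM scales (0.114 and 0.112). EIF2AK2 (PKR; 0.09, adjusted p = 0.509), EIF2AK3 (PERK; 0.19, 0.227) and EIF2AK4 (GCN2; -0.16, 0.187) did not pass with edgeR. Each passed in 1 fit without a library: EIF2AK2 (0.19, edgeR adjusted p = 0.0346) and EIF2AK3 (0.31, 0.014) without treated replicate 1, and EIF2AK4 (-0.20, 0.0423) without treated replicate 2. Without treated replicate 2, EIF2AK3 was at 0.03 (0.858) and EIF2AK2 at -0.03 (0.789). OMA1, a mitochondrial protease upstream of HRI, fell from 25.5 to 14.1 CPM (-0.85, edgeR adjusted p = 0.000572) and DELE1, which encodes a substrate of OMA1, fell by 0.67 on the log2 scale (adjusted p = 0.000734; named after its value was seen). OMA1 lost its call on both TPM scales (0.116 and 0.113). IMPACT, an inhibitor of GCN2, fell from 94.5 to 61.6 CPM (-0.61), a call also lost on both TPM scales (0.097 and 0.0941). EIF2S1, which encodes the eIF2 subunit that the kinases phosphorylate, rose from 192 to 319 CPM (0.73 ± 0.09 SE and an edgeR adjusted p of 4.74e-05). The count of this list was 3 on either TPM scale, where 1598 and 1608 of all genes were called. In the reported fit 4376 of all genes were called. Over the fits without a library the count of this list varied, as did that of all genes (both given below).

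Of 11 other stress transcription factors tested, 2 were higher and 4 lower, with a median of -0.03, against 17.1% and 16.9% of all genes. ATF3, an early stress repressor, rose from 10.3 ± 0.117 to 22.1 ± 2.57 CPM (mean ± SD of 2 libraries; log2 fold change 1.09, edgeR adjusted p = 0.000137). CEBPD, a C/EBP relative, fell from 8.90 to 2.696 CPM (-1.77, edgeR adjusted p = 9.1e-05) and NUPR1, a small stress-induced chromatin protein, from 47.2 to 24.3 CPM (-0.97, adjusted p = 5.41e-05).

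Downstream, the amino acid supply targets of ATF4 moved largely one way. Of 27 tested members 20 were lower and 1 higher, against 16.9% and 17.1% of all genes tested. The median log2 fold change of the list was -0.65, with members from -1.46 to 0.42. ASNS, the asparagine synthetase, fell from 497 to 254 CPM (-0.97 ± 0.09 SE), PSAT1, an enzyme of serine synthesis, from 548 to 279.9 CPM (-0.97 ± 0.09) and SLC38A2, a neutral amino acid transporter, from 1968 to 1026 CPM (-0.94 ± 0.09). Their edgeR adjusted p-values were 2.67e-06, 3.42e-06 and 4.83e-06. The 1 gene called higher was SLC3A2, the shared heavy chain of several amino acid transporters (0.42, edgeR adjusted p = 0.0195; named after its value was seen). It lay at 105 and 108 CPM in untreated libraries and at 166 and 119.9 CPM in treated ones, so that treated replicate 1 stood apart. No gene of the list was called higher without treated replicate 1, without either untreated library or on either TPM scale. The summed level of the 27 genes was 8942 and 9117 CPM in untreated and 5674 and 5755 CPM in treated libraries. Treated replicate 1 exceeded treated replicate 2 in 19 of the 27.

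Of 17 tested ATF4 and CHOP targets outside amino acid supply, 9 were lower and 2 higher, with a median of -0.33. Over all genes tested, 16.9% were lower and 17.1% higher. PCK2, the mitochondrial form of a gluconeogenic enzyme, fell from 68.2 to 21.4 CPM (-1.68 ± 0.13 SE and an edgeR adjusted p of 7.46e-07). KLHL24, a ubiquitin ligase adaptor, fell by 0.80 and HERPUD1, a membrane protein of endoplasmic reticulum degradation, by 0.61 on the log2 scale. The 2 called higher were SQSTM1 (0.58, edgeR adjusted p = 0.000803) and TNFRSF10B (0.35, 0.0132), both named after their values were seen. The count of this list was 7 on either TPM scale, where 1598 and 1608 of all genes were called, against 4376 reported. Some genes are counted in more than 1 list: NUPR1 here and among transcription factors, HERPUD1 here and among endoplasmic reticulum genes, VEGFA and NDRG1 here and among hypoxia targets. CEBPD, ATF5, CEBPG and CEBPA are both transcription factors and relatives, XBP1 is also in the endoplasmic reticulum list, and PPP1R15B and DNAJC3 of the eIF2 list are also in those of relatives and of the endoplasmic reticulum. FGF21 had 0 counts in all 4 libraries.

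Genes related to the members by sequence or family moved in both directions. STC1, the paralog of STC2, rose from 15.8 ± 1.82 to 101.3 ± 2.74 CPM (mean ± SD of 2 libraries; log2 fold change 2.69 ± 0.12 SE and an edgeR adjusted p of 2.27e-09). The TPM of STC2 was 27.0 and 23.0 times that of STC1 in untreated libraries and 4.37 and 4.26 times in treated ones. Of 13 tested relatives 5 were higher and 3 lower, against 17.1% and 16.9% of all genes, with a median of 0.09. Over the fits without a library this count varied, as did that of all genes called (both given below). DDIT4L, TRIB1, CHAC2 and SESN3, paralogs of DDIT4, TRIB3, CHAC1 and SESN2, had log2 fold changes of 0.90, 0.60, 0.72 and -0.96 (edgeR adjusted p of 0.00175, 0.00276, 0.00223 and 0.000124; all 4 named after their values were seen). The other listed paralogs of TRIB3 and SESN2 did not pass: TRIB2 at -0.35 (edgeR adjusted p = 0.113) and SESN1 at 0.05 (0.844). The difference in response between a member and its relative was not tested.

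**Figure D4:**
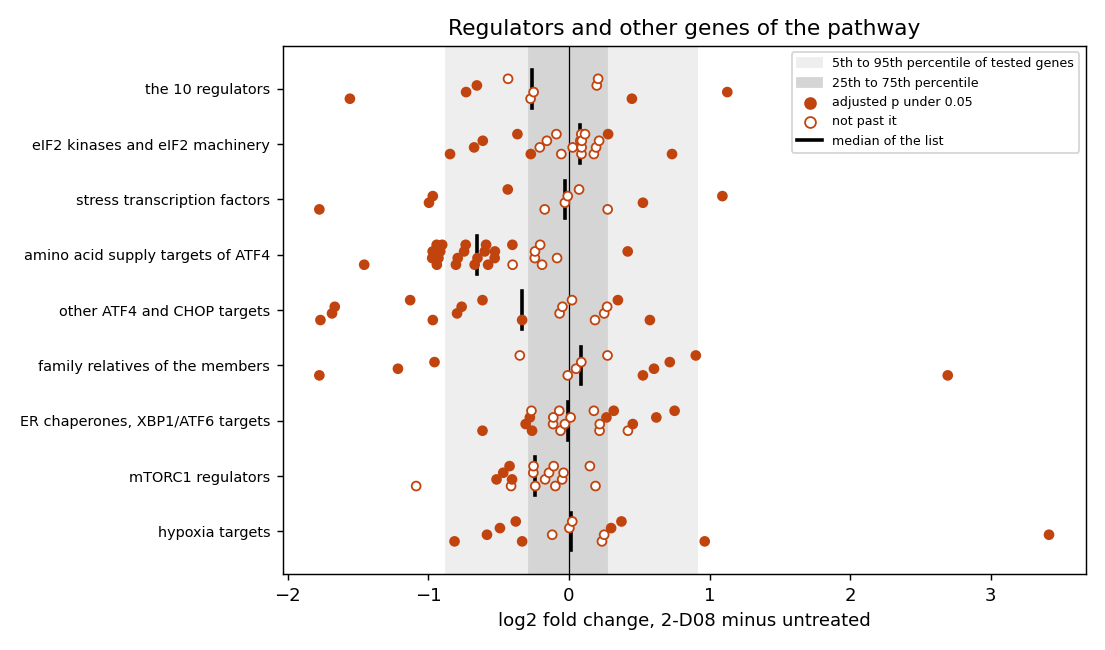
Log2 fold change (horizontal axis, treated minus untreated) of each tested gene in the 10 regulators and 8 further lists, filled where the adjusted p was under 0.05, with each list's median as a black bar and grey bands for the middle 50% and 90% of all tested genes. The amino acid supply targets lie mostly left of 0 (median -0.65), while the regulators spread from -1.56 to 1.13.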

How the data were processed

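Total RNA was depleted of ribosomal RNA, per the labels' protocols. STAR 2.7.8a, build GRCh38, cutadapt 3.4 and DESeq2 are listed, per the submitters' processing notes. For the counter, strand setting and annotation the entry is: not given in the sources used here. From these steps the authors deposited raw read counts per gene and TPM, both used here. A table of log2-like transformed values was not used. Each column was matched to a sample by name, and 0 columns stayed unmatched. Genes were filtered with filterByExpr (minimum count 10), scaled by TMM and tested over the whole table with edgeR 4.0.16 (quasi-likelihood, robust, two-sided, Benjamini-Hochberg) in R 4.3.3. SEs come from the F statistic. Alternatives used limma 3.58.1 and DESeq2 1.42.0. Separate cultures are not stated for the libraries. The p-values therefore measure the spread between these libraries alone, which may be technical.

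The members and lists were chosen with earlier results of these data known. Named genes were all 10 members, 8 fixed pathway genes (the eIF2 kinases, PPP1R15B, ATF3, HSPA5 and ASNS) and up to 3 genes of smallest p per list with a mean of at least 1 CPM. The fit was tested on simulated data for this comparison (12906 genes): the share recovered was 61.2% at 1.5-fold, 91% at 2-fold and 97% at 4-fold, and 5.14% of 175 calls were false. The simulation changed 67, 67 and 66 genes at these folds and gave every gene the same dispersion (0.00727). In the real data 33.9% of genes were called, so these shares do not measure the accuracy of the reported calls. Positions are from GENCODE release 29 and promoter sequences from RefSeq (GRCh38.p14). A result on a further gene is not reported here.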

Additional observations from a re-analysis of the deposited data

How the results depend on the processing

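Each group has 2 libraries, so without one of them its group is a single library, whose spread is taken from the other group. ATF4, DDIT4, PPP1R15A and VLDLR passed in all 13 alternatives with 1 direction, DDIT3 in 9. Counts of called genes that moved by over 1.5 times, against those reported, were as follows; the cause was not tested. With limma on TPM with a pseudocount of 1 and of 0.1, 1598 and 1608 of all genes (4376 reported), 3 of the eIF2 list (7), 7 of the other ATF4 and CHOP targets (11), 3 of the endoplasmic reticulum list (9) and 0 of the mTORC1 list (4; 5 at an unadjusted p under 0.05 on each scale) were called. Library size only and DESeq2 each called 2 mTORC1 genes. Without a library the counts ran from 1866 to 6077 for all genes, 4 to 12 for the eIF2 list, 5 to 9 for relatives, 3 to 13 for the endoplasmic reticulum list, 0 to 9 for the mTORC1 list and 4 to 10 for hypoxia targets. Over those fits the log2 fold change of CEBPB ran from -0.028 to 0.43 and that of EIF2AK2 from -0.032 to 0.19. In the libraries without mostly even counts, a comparison added after the data had been seen, CHAC1 was at 0.0043 and EIF2AK2 at -0.067. With the replicate number as a block 8 regulators and 7 mTORC1 genes were called, 6239 genes in all; deviations of same-numbered libraries correlated at 0.157 over 12906 genes, and for the regulators shared a sign in 5 of 10. RLE factors, library size only, DESeq2, the unfiltered table, a filter at a mean of 5 CPM and halved counts in the even-count libraries left the 5 calls among the regulators in place.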

Other observations

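The endoplasmic reticulum chaperones and targets of XBP1 and ATF6, the arms of the unfolded protein response that do not run through eIF2, had 5 higher and 4 lower of 20 tested members (median log2 fold change -0.01). Over all genes tested, 17.1% were higher and 16.9% lower. HSPA5, the chaperone BiP, fell from 1004 to 828 CPM (-0.28, edgeR adjusted p = 0.0263), a call lost without either untreated library (adjusted p of 0.204 and 0.35) and on both TPM scales (0.0528 and 0.0514). MANF, a secreted stress-induced factor (0.75), and DNAJB11, a cochaperone of BiP (0.62), rose. Without a library the count of this list varied, as did that of all genes called (both given above).

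Of 17 tested genes of mTORC1 control, on which DDIT4 and SESN2 act, 4 were lower and 0 higher in edgeR (0 higher also at an unadjusted p under 0.05), with a median of -0.24. Over all genes 33.9% were called, 16.9% lower, so this count is not a result about the list. They were NPRL3 (-0.51), a GATOR1 subunit, TSC2 (-0.42), WDR59 (-0.40) and TBC1D7 (-0.47; named after its value was seen). The number of these calls changed with the library left out, as did that of all genes called (both given above). Between the libraries with mostly even counts the log2 ratios of NPRL3, TSC2, WDR59 and TBC1D7 were -0.73, -0.72, -0.46 and -0.55. Between the remaining libraries they were -0.30, -0.11, -0.34 and -0.37. DDIT4, STC2 and VLDLR are also known targets of hypoxia factors. The list of other hypoxia targets had 4 higher and 5 lower of 14 tested (median 0.01), against 17.1% and 16.9% of all genes. ANGPTL4, a secreted lipase inhibitor, rose from 0.899 to 10.0 CPM (3.41), ADM, a vasodilator peptide, rose by 0.97, and MXI1, an antagonist of MYC, fell by 0.81 on the log2 scale. The count of the hypoxia list also varied with the library left out, as did that of all genes.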
